A study of Mus musculus with 24 samples.

Results

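Ribosomal protein genes were taken from the FPKM table as the protein-coding genes whose symbol is Rpl, Rps or Rplp followed by a number, leaving out the Rps6k kinases and pseudogene symbols. The rule found 85 of 54446 genes. Of these, 43 encode proteins of the large ribosomal subunit, 30 encode proteins of the small subunit and 3 encode the P stalk (Rplp0, Rplp1 and Rplp2). Another 8 are paralogs (Rpl3l, Rpl7l1, Rpl10l, Rpl22l1, Rpl36al, Rpl39l, Rps27l and Rps27rt), and Rps19bp1 fits the name pattern but encodes a protein that binds Rps19. Rpsa, Fau and Rack1 encode ribosomal proteins under names of another kind and are described beside the 85.

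Ribosomes need nearly all of these proteins in equal amounts, and cells make them in step with ribosomal RNA. Most of their mRNAs begin with a C and a run of pyrimidines (C or T in DNA), the terminal oligopyrimidine motif, through which mTORC1 and LARP1 control their translation and stability. Excess ribosomal protein that finds no ribosome is degraded, and free Rpl5 and Rpl11 can bind the p53 regulator Mdm2.

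The libraries were made from mRNA of mouse corpus callosum, the fibre tract between the hemispheres. Cuprizone, a copper chelator that kills oligodendrocytes, had been given to 2 of the groups, and an inhibitor of Bruton's tyrosine kinase (BTKi), a kinase of B cells and myeloid cells, was given after disease induction. The 4 naive vehicle and 4 naive BTKi libraries came from mice without cuprizone, and 8 libraries each came from cuprizone with vehicle and cuprizone with BTKi. The sources used here do not name the strain, age, sex, compound, dose or duration. They do not say whether each library is a separate animal, so p-values measure the spread between these libraries, which may be technical.

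Depth, read from the spacing of low values, was 2.65e+07 to 3.10e+07 fragments per library. All 10 mature oligodendrocyte markers fell in cuprizone vehicle against naive vehicle (median log2 change -1.34), and their summed level ran from 1107 to 1824 FPKM against 3491 to 4900. Of 10 microglia markers, 8 rose (median 0.97), with sums of 328 to 914 against 189.6 to 224 FPKM. Of 8 astrocyte markers 4 rose and 1 fell, and all 8 striatal neuron markers fell (sums of 129 to 238 against 231 to 672 FPKM). None of 10 neuron, 8 choroid plexus, 5 measured ependyma, 6 endothelium and 4 measured red blood cell markers passed the test. All 8 choroid plexus estimates were nevertheless lower (median -1.28), each with an unadjusted p under 0.05 (limma). The choroid plexus sum ran from 1466 to 2285 FPKM in naive vehicle and from 93.4 to 1901 in cuprizone vehicle. It was 93.4 to 208 in cuprizone vehicle libraries 1, 4 and 7. The 5 ependyma estimates were also lower (median -0.39). Summed neuron markers ran from 2276 to 2659 FPKM in naive vehicle and from 2440 to 2727 in cuprizone vehicle. RNA of neurons was thus present in tissue given as corpus callosum, and its part in the total was not measured. The naive groups also differed in markers. Oligodendrocyte sums were 3028 to 3092 FPKM in naive BTKi, below every naive vehicle library, and the striatal median was -0.48 there against naive vehicle. None of these 8 striatal or 10 oligodendrocyte markers was called between the naive groups. In cuprizone BTKi against naive BTKi the medians were -0.92 for oligodendrocyte, 0.95 for microglia and -0.33 for striatal markers. None of the 8 striatal markers was called there. No marker in these lists was at 0 in every library. In bulk tissue, a change in the number of cells of a type and a change in RNA per cell cannot be told apart, and the part of these cell types in the results on ribosomal protein genes was not tested.

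Ribosomal protein genes took a larger share of each cuprizone library. Their share of total FPKM was 2.93%, 2.82%, 2.93% and 2.67% in naive vehicle libraries 1 to 4 and 2.89%, 2.98%, 2.90% and 2.97% in naive BTKi libraries 1 to 4. It ran from 3.06% to 3.52% (median 3.30%) in cuprizone vehicle and from 3.10% to 3.71% (median 3.31%) in cuprizone BTKi. No naive library reached the lowest cuprizone library. Group means were 2.84% ± 0.124, 2.93% ± 0.0469, 3.28% ± 0.146 and 3.31% ± 0.196 (SD, in the order naive vehicle, naive BTKi, cuprizone vehicle, cuprizone BTKi). The 2 highest libraries, cuprizone BTKi 8 and cuprizone vehicle 8, also had the highest microglia marker sum of their own group, at 680.0 and 914 FPKM. Among the other libraries the order was followed in part. Cuprizone BTKi 2 had a microglia sum of 552 FPKM and a share of 3.32%, and cuprizone BTKi 3 had 351 FPKM and 3.14%. Cuprizone vehicle 5 had 692 FPKM and a share of 3.18%, and cuprizone vehicle 7 had 328 FPKM and 3.31%. The relation of share to microglia markers was not tested.

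**Figure D1:**
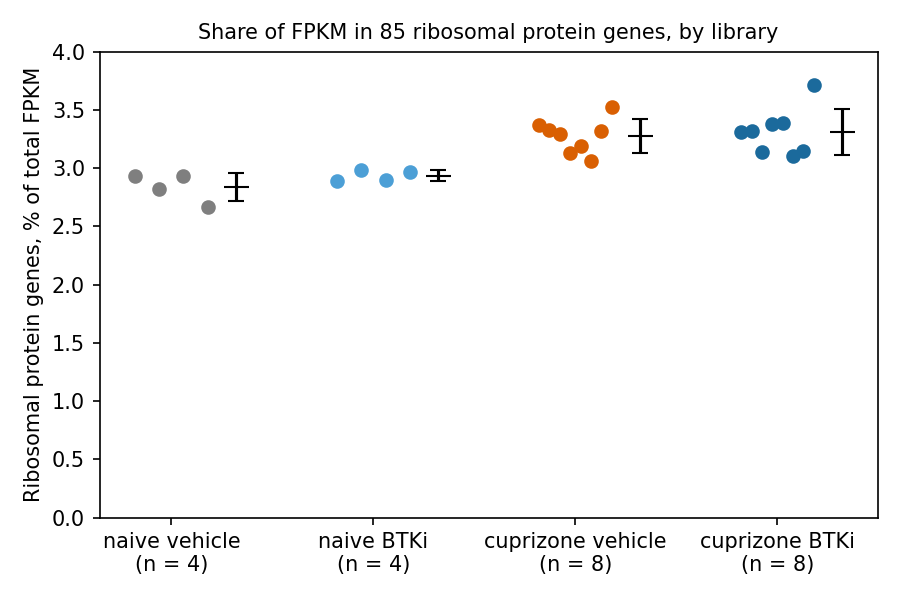
Share of total FPKM in the 85 ribosomal protein genes (vertical axis, percent) in each library, by group; points are libraries and the black mark is the mean with its SD. The 8 naive libraries sit between 2.67% and 2.98% and the 16 cuprizone libraries between 3.06% and 3.71%.

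Of the 85 genes, 82 passed the filter of a mean of 0.5 FPKM and were tested. In cuprizone vehicle against naive vehicle 47 of the 82 rose and 0 fell (limma, adjusted p at most 0.05), which is 57.3%. Over all 15216 genes tested, 15.0% were called, 10.2% as higher and 4.82% as lower. At an unadjusted p under 0.05 the number was 59, all higher, against 27.4% of all genes tested in either direction. Changes were small: the median log2 change of the 82 was 0.19 (14.2% higher), with quartiles of 0.14 and 0.26, against 0.03 over all genes tested. In 28 genes (34.1%) every cuprizone vehicle library was above every naive vehicle library, against 5.92% of all genes tested. In 0 genes was every one lower, against 2.85%. With cuprizone vehicle 1, 4 and 7 left out 44 rose, and 47 rose without cuprizone vehicle 8 and cuprizone BTKi 8, each the highest of its group in microglia markers. The count was 32 without naive vehicle 4.

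**Figure D2:**
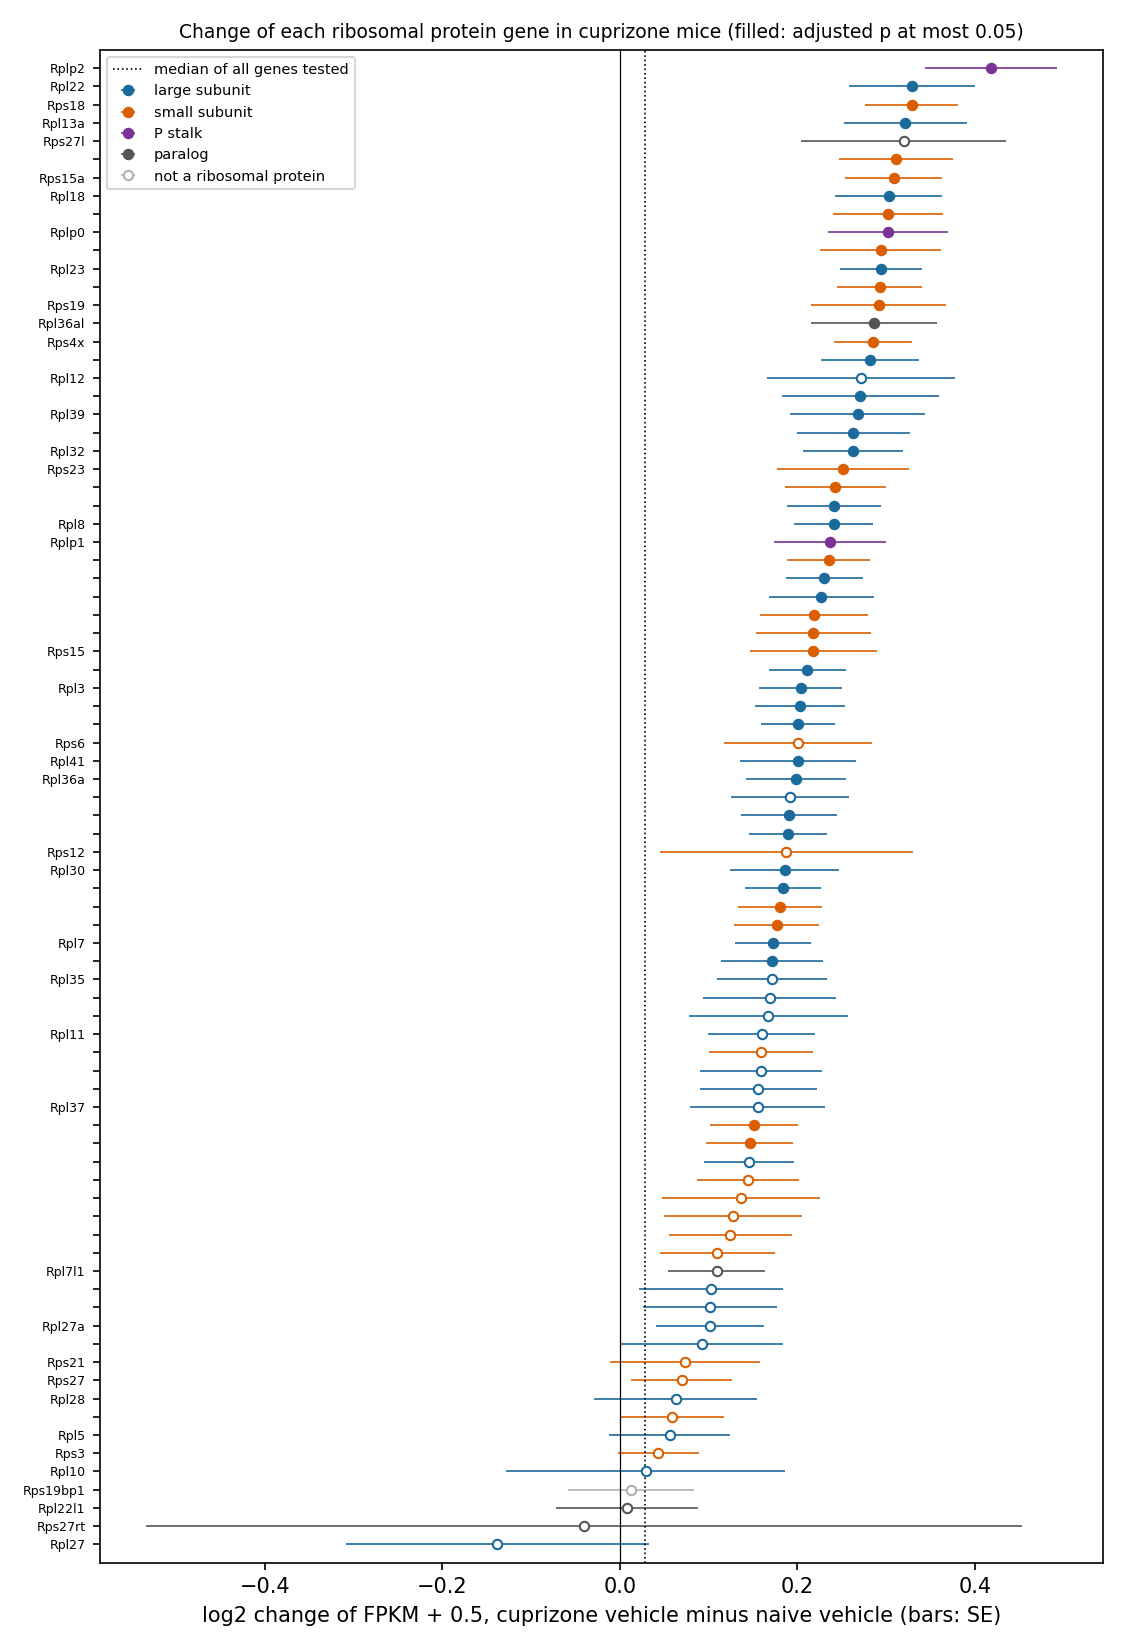
Log2 change of FPKM + 0.5 in cuprizone vehicle minus naive vehicle (horizontal axis) for each of the 82 genes tested (rows, with names for genes described in the text), with the standard error as bars; filled points have an adjusted p of at most 0.05 and the dotted line is the median of all genes tested. Rplp2 at 0.42 is the top row and Rpl27 at -0.14 the bottom row, and all 47 filled points lie to the right of 0.

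Genes of both subunits were among those that rose. In the large subunit 25 of 43 genes rose (median 0.19), and in the small subunit 18 of 30 rose (median 0.19). All 3 P stalk genes rose, and of the 5 paralogs tested 1 rose. The difference between subunits was not tested.

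The P stalk is the arm of the large subunit that recruits elongation factors, with Rplp0 at its base and dimers of Rplp1 and Rplp2 at its tip. Rplp2 (chr7:141447370-141451585, plus strand, GRCm38) was at 116, 124, 126 and 108 FPKM in naive vehicle libraries 1 to 4. In cuprizone vehicle it ran from 137 to 192 FPKM (median 156). The groups did not overlap, and the log2 change of 0.42 (SE 0.07, adjusted p = 0.000252) was the largest of the 82. Rplp0 was at 133, 133, 127 and 120.1 FPKM in naive vehicle and from 139.8 to 184 (median 159.7) in cuprizone vehicle, again without overlap (log2 change 0.30, SE 0.07, adjusted p = 0.00276). Rplp1, the most abundant of the 85 by FPKM, was at 633, 576, 586 and 529.9 in naive vehicle and from 615 to 739 (median 689) in cuprizone vehicle. Its lowest cuprizone library lay below the highest naive one, and the rise of 0.24 (SE 0.06, adjusted p = 0.0108) was lost without naive vehicle 4 (0.19, adjusted p = 0.0671).

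In the small subunit Rps18, a protein of its head, was at 131, 123, 129 and 118 FPKM in naive vehicle and from 141 to 169 (median 161) in cuprizone vehicle. Every cuprizone vehicle library was higher (log2 change 0.33, SE 0.05, adjusted p = 7.96e-05). Rps15a was at 58.8, 52.8, 54.5 and 53.7 FPKM in naive vehicle and from 63.5 to 79.7 (median 66.6) in cuprizone vehicle, with a change of 0.31 (SE 0.05, adjusted p = 0.000248). The smallest p of the 82 belonged to Rps4x (chrX:102184941-102189394, minus strand, GRCm38), which encodes a small subunit protein. It was at 153, 155, 155 and 143 FPKM in naive vehicle and from 174 to 203 (median 182) in cuprizone vehicle (log2 change 0.29, SE 0.04, adjusted p = 5.01e-05).

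In the large subunit Rpl13a, also known for a role outside the ribosome in silencing inflammatory mRNAs, was at 278, 276, 287 and 247 FPKM in naive vehicle and from 290.3 to 371 (median 353) in cuprizone vehicle. It did not overlap between groups (log2 change 0.32, SE 0.07, adjusted p = 0.00179). Rpl18 was within 116 to 119 FPKM in the naive vehicle libraries and from 129 to 166 in cuprizone vehicle (change 0.30, SE 0.06, adjusted p = 0.000813). Rpl22, described with its paralog below, rose by 0.33.

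Of the 35 genes that did not pass the test, Rpl27 had the lowest estimate at -0.14 (SE 0.17, adjusted p = 0.652), with 9.02, 13.3, 12.1 and 8.64 FPKM in naive vehicle and 6.76 to 15.3 in cuprizone vehicle. Rps3 (0.04), Rpl28 (0.06) and Rps21 (0.07) were measured at levels of 109 to 219.8 FPKM in naive vehicle, and none passed the test. Pseudogene copies of Rpl27 and Rpl28 rose (limma). Rpl27-ps3 went from 101.9 ± 2.63 to 120.6 ± 6.36 FPKM (change 0.24, SE 0.05, adjusted p = 0.000769). Rpl28-ps1 went from 63.4 ± 16.3 to 99.7 ± 12.1 FPKM (0.68, SE 0.18, adjusted p = 0.0122). Of the 50-base windows of the main transcript, 64.1% in Rpl27 and 34.5% in Rpl28 were also found in other annotated transcripts. How fragments were divided between gene and copy was not tested. Rpl10 had an estimate of 0.03 with a wide interval, from -0.30 to 0.35, and libraries from 31.9 to 47.2 FPKM in cuprizone vehicle. Rps19bp1, which is no ribosomal protein, was at 13.4 FPKM in naive vehicle and 13.6 in cuprizone vehicle (change 0.01, SE 0.07).

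Rpl5 and Rpl11 enter the ribosome together with the small ribosomal RNA of the large subunit. Rpl5 was at 18.4, 15.3, 17.8 and 16.9 FPKM in naive vehicle and from 15.8 to 19.5 in cuprizone vehicle, and it did not pass the test (change 0.06, SE 0.07, adjusted p = 0.642). Rpl11 was at 188, 192, 182 and 157 FPKM in naive vehicle and from 185 to 219.9 in cuprizone vehicle (change 0.16, SE 0.06, adjusted p = 0.0749). Without naive vehicle 4 the change of Rpl11 was 0.10 (adjusted p = 0.353). Rpl11 passed in 3 of 36 alternatives, with library weights (adjusted p = 0.0193), without cuprizone BTKi 8 (0.0323) and without cuprizone vehicle 8 and cuprizone BTKi 8 (0.0481).

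Promoter sequences listed by RefSeq (GRCm38.p6) for 56 of the 76 cytoplasmic ribosomal proteins were searched for a pyrimidine run, since that run is the family's shared start motif. The windows below run from 30 bases before to 15 bases from the annotated start, 5′ to 3′ on the gene's strand, and capitals mark each C followed by at least 6 C or T within 20 bases of the start. Rplp2, Rps18, Rps15a and Rpl18 are genes that rose in cuprizone vehicle, Rps27 and Rpl35 have a run and did not pass the test there, and Rpl23 and Rps4x rose and show no run.
Rplp2: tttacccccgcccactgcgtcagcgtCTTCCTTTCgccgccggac
Rps18: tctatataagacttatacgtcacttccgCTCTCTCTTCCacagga
Rps15a: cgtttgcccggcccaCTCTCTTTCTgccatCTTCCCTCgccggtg
Rpl18: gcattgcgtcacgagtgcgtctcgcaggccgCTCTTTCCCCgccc
Rps27: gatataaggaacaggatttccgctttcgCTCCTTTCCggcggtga
Rpl35: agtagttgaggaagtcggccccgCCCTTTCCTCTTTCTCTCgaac
Rpl23: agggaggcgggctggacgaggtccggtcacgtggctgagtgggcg
Rps4x: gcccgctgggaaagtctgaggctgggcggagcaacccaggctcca

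The windows lie at chr7:141447621-141447665 (plus strand) for Rplp2, chr17:33955651-33955695 (minus) for Rps18, chr7:118116133-118116177 (minus) for Rps15a, chr7:45718041-45718085 (plus) for Rpl18, chr3:90213634-90213678 (minus) for Rps27, chr2:39005117-39005161 (minus) for Rpl35, chr11:97782425-97782469 (minus) for Rpl23 and chrX:102189377-102189421 (minus) for Rps4x. The run starts 4 bases before the annotated start in Rplp2 and 2 bases before it in Rps18 and Rps27. Rps15a has a pair of runs, of which the second begins at the annotated start. At any listed start, on the gene's strand, the run was found in 32 of the 56 genes (57.1%) against 21.4% of the 27025 genes with a promoter entry. The stricter form, a C at the annotated start followed by at least 4 C or T, was found in 13 of 56 (23.2%) against 3.01%; the forms can overlap. CCGGAAG, the core bound by ETS factors, was searched on either strand from 250 bases before to 50 after the start. It was present in 23 of 56 (41.1%) against 9.93% of all genes. Of the lists described below, it was in 37.7% of mitochondrial ribosomal protein genes, 33.3% of ribosome assembly genes and 23.1% of translation factors. AAGATGG, the core of the YY1 motif, was present on either strand in 9 of 56 (16.1%) against 7.28%. In the same lists AAGATGG was in 18.8%, 2.78% and 23.1%, in that order. Neither motif was found in the small nucleolar RNA hosts with a promoter entry.

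The change in cuprizone vehicle was also counted by the run. Of 32 genes with it 20 rose (median 0.20), and of 24 without it 14 rose (median 0.19). These are descriptions of letters at annotated starts, which can differ from the starts used in this tissue.

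The paralogs were set beside their parent genes. Part of their sequence is shared, so the values are not fully separate measurements. Of the 50-base windows of the main transcript, 91.1% in Rps27rt, 63.3% in Rpl36al and 57.3% in Rpl22l1 were also found in transcripts of other genes. The share was 22.4% in Rps27l and 9.03% in Rpl7l1, and 85.5% in the parent Rpl36a. Rpl22, an RNA-binding protein of the large subunit, was at 68.5, 67.8, 70.0 and 57.9 FPKM in naive vehicle and from 72.4 to 99.2 (median 81.1) in cuprizone vehicle (change 0.33, SE 0.07, adjusted p = 0.00184). Rpl22l1, its paralog, was at 20.6, 19.8, 20.1 and 22.7 FPKM in naive vehicle and from 15.9 to 25.9 in cuprizone vehicle. That change was 0.01 (SE 0.08, adjusted p = 0.965) and turned to -0.02 under median ratio scaling, to -0.01 under quantile normalization and to -0.02 with the top genes left out of the library total. The difference between the paralogs was not tested.

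Rps27, a zinc-finger protein of the small subunit, was at 360.0, 331, 342 and 305 FPKM in naive vehicle and from 322 to 389 in cuprizone vehicle, overlapping (change 0.07, SE 0.06, adjusted p = 0.460). Rps27l, a paralog induced by p53, was far lower, at 7.44, 6.98, 6.39 and 6.51 FPKM in naive vehicle and from 6.65 to 12.8 (median 8.55) in cuprizone vehicle. Its estimate of 0.32 (SE 0.12) missed the threshold (adjusted p = 0.0632), and it passed in 5 of 36 alternatives. The retrogene Rps27rt was at 1.14 to 11.3 FPKM in cuprizone vehicle and 4.46 to 7.94 in naive vehicle, with an estimate of -0.04 (SE 0.49).

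Rpl36al was the 1 paralog that rose (69.9 ± 5.47 to 85.4 ± 6.83 FPKM, log2 change 0.29, SE 0.07, adjusted p = 0.00621), and its parent Rpl36a rose as well (change 0.20, SE 0.06, adjusted p = 0.0172), though not without naive vehicle 2 (adjusted p = 0.0602). Rpl7 rose by 0.17 (adjusted p = 0.00603), while Rpl7l1, a nucleolar relative that works in ribosome assembly, was at 10.2 ± 0.473 and 11.1 ± 1.00 FPKM (change 0.11, SE 0.05) and did not pass. Rpl3 rose by 0.20 (adjusted p = 0.00339), and its striated muscle paralog Rpl3l stayed at or under 0.377 FPKM in every library. Rpl39 rose by 0.27 (57.1 ± 3.94 to 69.0 ± 7.09 FPKM, adjusted p = 0.0162), but its adjusted p was 0.0815 without naive vehicle 2. The paralogs of Rpl39 and Rpl10 best known from testis, Rpl39l and Rpl10l, were at 0.179 FPKM or less and listed at 0 in every library, in that order.

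Fau and Rack1, ribosomal proteins with names of another kind, rose. Fau, a fusion of a ubiquitin-like protein with a small subunit protein, was at 77.6, 77.4, 80.9 and 68.0 FPKM in naive vehicle and from 88.9 to 109 in cuprizone vehicle (change 0.38, SE 0.07, adjusted p = 0.000544). Rack1, a scaffold on the head of the small subunit, was at 86.0, 85.1, 89.5 and 85.5 FPKM in naive vehicle and from 92.4 to 122 in cuprizone vehicle (change 0.24, SE 0.06, adjusted p = 0.00357). Neither gene overlapped between the groups. Rpsa (0.15, SE 0.06, adjusted p = 0.0834) did not pass.

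Other genes of translation were measured from lists drawn up from general knowledge. Over all genes tested in cuprizone vehicle against naive vehicle, 10.2% were called as higher and 4.82% as lower. Of 19 translation factors listed for mRNAs of the same class, 11 rose and 0 fell (median 0.17). The run was found in 7 of the 13 with a promoter entry (53.8%) and the stricter form in 2 of 13. Pabpc1, the poly(A)-binding protein, went from 72.9 ± 2.78 to 93.2 ± 9.15 FPKM (change 0.35, adjusted p = 0.000147) and Eef1b2, a nucleotide exchange factor of elongation, from 72.3 ± 6.52 to 90.9 ± 6.24 (0.33, adjusted p = 0.000248). Eef1a1, which brings aminoacyl-tRNA to the ribosome, went from 1165 ± 94.3 to 1386 ± 65.6 FPKM (0.25, adjusted p = 0.000463). Of 7 host genes of small nucleolar RNAs listed for the same class, 5 rose and 0 fell (median 0.30), among them Snhg12 (19.3 ± 1.31 to 26.7 ± 2.23 FPKM) and Gas5 (104 ± 4.88 to 134 ± 10.1 FPKM). The run was found in 1 of the 6 hosts with a promoter entry (16.7%) and the stricter form in 2 of 6, and Gas5 showed no run at either listed start.

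Of 40 ribosome assembly genes 11 rose and 0 fell (median 0.10), with the helicase Ddx21 (5.00 ± 0.465 to 6.49 ± 0.669 FPKM) and Tcof1, a factor of ribosomal RNA transcription (6.26 ± 0.176 to 7.72 ± 0.530), having the smallest adjusted p. Among 31 genes of mTORC1 and initiation control 8 rose and 0 fell (median 0.05). Those that rose included the stress response genes Trib3 (0.337 ± 0.0334 to 2.10 ± 0.614 FPKM) and Ddit3 (17.6 ± 0.591 to 28.1 ± 3.71), the interferon-induced kinase gene Eif2ak2 (1.39 ± 0.176 to 3.27 ± 0.687) and Myc (1.54 ± 0.348 to 2.70 ± 0.471). Mitochondrial ribosomal proteins, which form a separate ribosome, had a median of 0.02, and 4 of 78 rose (Mrps23, Mrpl9, Mrpl32 and Mrpl28) and 0 fell. These counts stand beside 10.2% called as higher and 4.82% as lower over all genes tested. Differences between these lists were not tested.

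**Figure D3:**
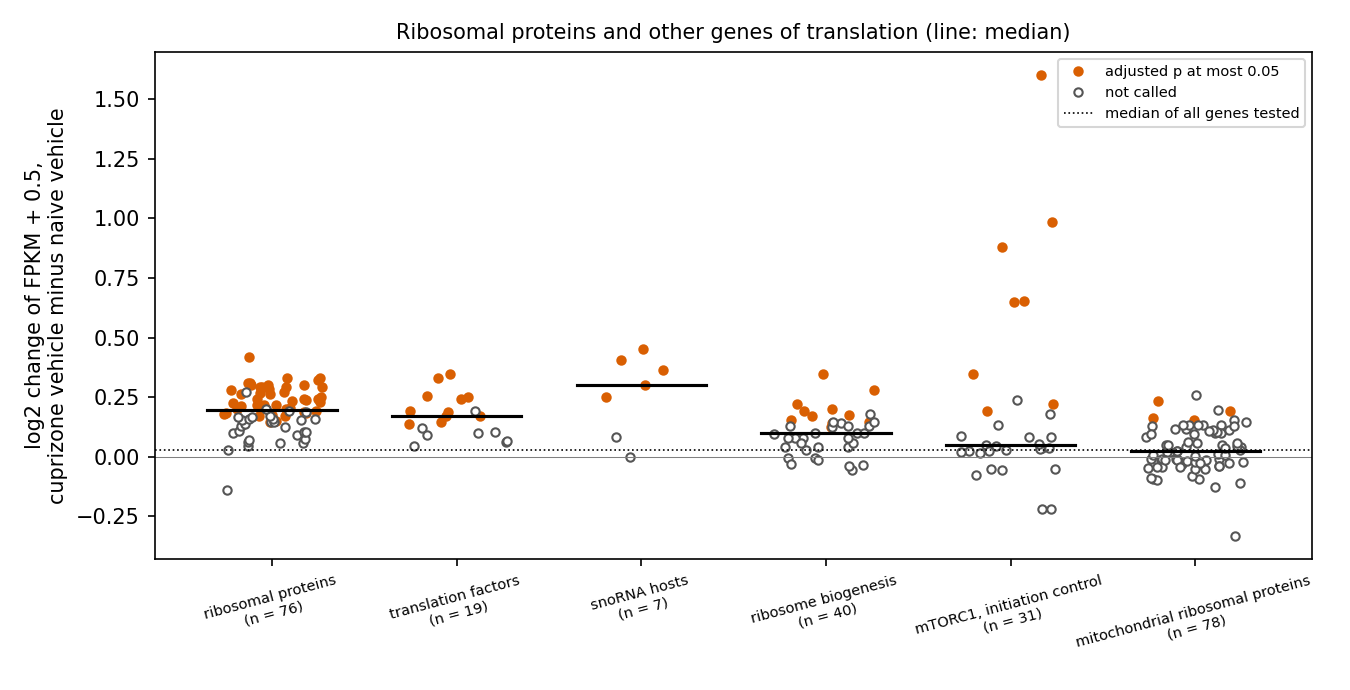
Log2 change of FPKM + 0.5 in cuprizone vehicle minus naive vehicle (vertical axis) for each gene of 6 lists; filled points have an adjusted p of at most 0.05, black lines are list medians and the dotted line is the median of all genes tested. The list medians run from 0.30 in the small nucleolar RNA hosts through 0.20 in the 76 cytoplasmic ribosomal proteins to 0.02 in the mitochondrial ribosomal proteins.

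Cuprizone mice that received BTKi were compared with naive mice that received BTKi, a comparison that shares no library with the vehicle one. Both comparisons were fitted in 1 model, so their p-values rest on a shared estimate of the spread. There 31 of 82 genes rose and 0 fell (37.8%), against 6.11% higher, 1.77% lower and 7.87% in either direction over all genes tested. At an unadjusted p under 0.05 the number was 60, all higher, against 18.5% of all genes. The median change was 0.17 (12.2%), and 25 genes (30.5%) did not overlap between groups, against 5.70% of all genes as higher and 1.47% as lower. The count fell to 18, 13 and 17 without naive BTKi 2, 3 and 4, to 14 under median ratio scaling and to 17 with no filter on low values, and was 27 without cuprizone BTKi 8 and cuprizone vehicle 8. The median over the alternatives ran from 0.14 to 0.18.

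By subunit, 17 of 43 large subunit genes, 12 of 30 small subunit genes, 1 of 3 P stalk genes and 1 of 5 paralogs rose. Rps18 was at 136, 131, 124 and 124 FPKM in naive BTKi and from 142 to 178 (median 155) in cuprizone BTKi, without overlap (change 0.28, SE 0.05, adjusted p = 0.000707). Rps15a was at 54.6, 58.8, 60.1 and 54.4 FPKM in naive BTKi and from 63.9 to 76.6 in cuprizone BTKi (0.27, SE 0.05, adjusted p = 0.00192). Rplp0 was at 129, 130.2, 125 and 124 FPKM in naive BTKi and from 141 to 187 in cuprizone BTKi (0.29, SE 0.07, adjusted p = 0.00713).

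Rpl37, a small zinc-binding protein of the large subunit, had the largest change of the cytoplasmic ribosomal proteins there, with 130.0, 124, 117 and 130.4 FPKM in naive BTKi and 127 to 185 (median 157) in cuprizone BTKi (0.33, SE 0.08, adjusted p = 0.00586). Rpl35, near the exit of the peptide tunnel, rose by 0.29 (SE 0.06, adjusted p = 0.00261) and Rpl32 by 0.27 (SE 0.06, adjusted p = 0.0024). Rps19, the protein most often mutated in Diamond-Blackfan anaemia, was at 91.6 ± 3.61 and 111 ± 12.4 FPKM (change 0.27, adjusted p = 0.0277). That call was lost without naive BTKi 2, 3 or 4 (adjusted p = 0.0869, 0.107 and 0.0508). Rps27l was at 4.84, 6.94, 6.58 and 6.37 FPKM in naive BTKi and from 6.96 to 9.99 in cuprizone BTKi, with no overlap (change 0.41, SE 0.12, adjusted p = 0.0260), but its adjusted p was 0.156 without naive BTKi 1 and 0.0521 without naive BTKi 4.

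In all, 24 genes were called in both comparisons, 23 in the vehicle comparison alone, 7 in the BTKi comparison alone and 28 in neither. The 24 are 51.1% of the 47 and 77.4% of the 31. Across the 76 cytoplasmic ribosomal proteins the changes in the 2 comparisons had Pearson's r of 0.436 and Spearman's rho of 0.411, a description over genes that share libraries and are not independent. Rplp2 had a change of 0.22 (SE 0.07, adjusted p = 0.0798) here and 0.42 under vehicle. The difference between them, which is also that of the BTKi effects, was -0.20 (SE 0.10, adjusted p = 0.541).

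**Figure D4:**
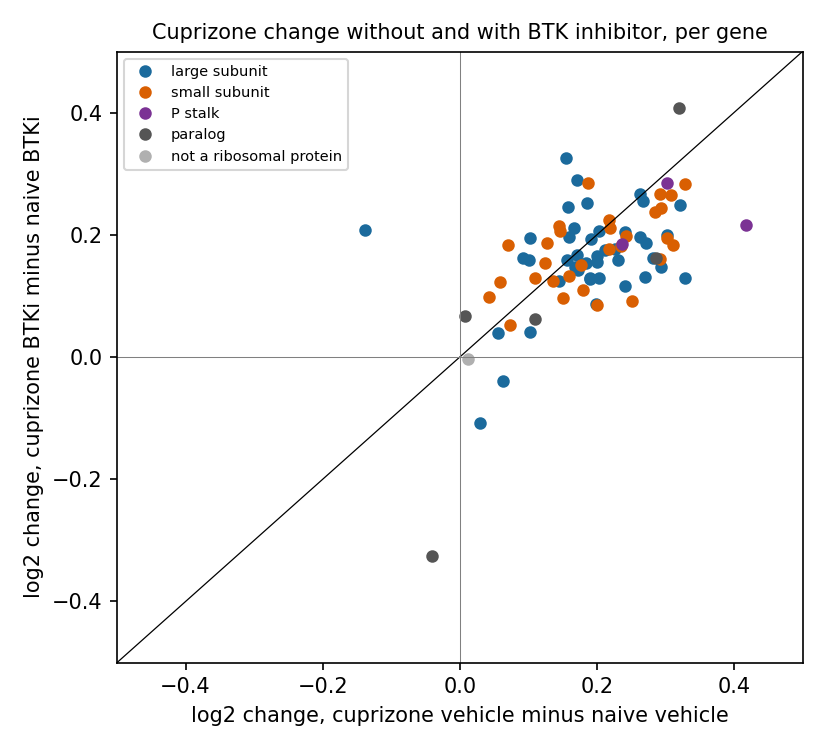
Log2 change of each of the 82 genes in cuprizone vehicle minus naive vehicle (horizontal axis) and in cuprizone BTKi minus naive BTKi (vertical axis), coloured by role; the diagonal marks equal change. Most points sit above 0 on both axes, with Rpl37 (0.16 and 0.33) above the diagonal, Rplp2 (0.42 and 0.22) below it, and Rps27rt at -0.33 on the vertical axis.

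Between cuprizone BTKi and cuprizone vehicle 0 of 82 genes were called (limma, adjusted p), against 0.177% of all genes tested, 0.0394% as higher. With an unadjusted p under 0.05 the number was 3 (Rpl27a, Rps27 and Rpl30), all higher, against 8.79% of all genes. No gene had all 8 libraries of one group above the other, against 0.0263% of all genes as higher. Rpl27a was at 76.5 to 90.9 FPKM (median 84.4) in cuprizone vehicle and 86.8 to 109 (median 88.5) in cuprizone BTKi, overlapping (change 0.13, SE 0.05, adjusted p = 0.415). Rps27 ran from 322 to 389 and from 338 to 411 FPKM (0.12, SE 0.05, adjusted p = 0.420), and Rpl30 from 131 to 163 and from 144 to 174 FPKM (0.11, SE 0.05, adjusted p = 0.520). The median change of the 82 was 0.02 against -0.02 over all genes, and it was -0.01 without cuprizone BTKi 8. In 76 of the 82 genes the 95% interval of the change lay within 1.2-fold in either direction.

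In naive mice BTKi gave 0 calls of 82 (limma, adjusted p), against 0.217% of all genes tested. An unadjusted p under 0.05 was reached by 6, all higher, against 12.6% of all genes. Rps23, at the decoding centre of the small subunit, was at 62.2, 57.8, 63.2 and 60.5 FPKM in naive vehicle and 73.3, 71.1, 74.8 and 71.1 in naive BTKi. These libraries did not overlap (change 0.25, SE 0.09, adjusted p = 0.221). No overlap was seen in 6 of 82 genes (7.32%) as higher, against 2.43% of all genes, and in 0 as lower, against 4.93%. Rps6, the substrate of S6 kinase, was at 163, 200.4, 197 and 218 FPKM in naive vehicle and 212, 229.8, 234 and 238 in naive BTKi (0.23, SE 0.10, adjusted p = 0.299), and Rpl23 at 144, 145, 145 and 141 against 159, 152, 160.2 and 157 (0.13, SE 0.05, adjusted p = 0.302). Pseudogene copies of Rps23 and Rps6 had lower means in naive BTKi. Rps23-ps1 was at 102.8 ± 9.82 FPKM in naive vehicle and 94.9 ± 7.47 in naive BTKi, and Rps6-ps4 at 74.8 ± 18.7 and 53.1 ± 15.9. Of the 50-base windows of the main transcript, 48.4% in Rps23 and 84.6% in Rps6 were also found in other annotated transcripts. A shift of fragments between gene and copy was not tested. The median change was 0.05 against -0.02 over all genes, and 0.02 without naive vehicle 4, which had the lowest share of ribosomal protein FPKM. Intervals of 63 of 82 genes lay within 1.2-fold.

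The difference of the BTKi effects, cuprizone minus naive, gave 0 calls (limma, adjusted p), against 0.125% of all genes in either direction and 0.00657% as higher. An unadjusted p under 0.05 was reached by 1 gene, against 9.74% of all genes. It was Rpl23 (-0.15, SE 0.07, adjusted p = 0.486), and the next 2 were Rpl22 (-0.20, SE 0.10, adjusted p = 0.526) and Rpl8, a protein near the peptidyl transferase centre (-0.12, SE 0.06, adjusted p = 0.531). Here 49 of 82 intervals lay within 1.2-fold. The comparisons of BTKi with vehicle each share a group with a cuprizone comparison, so their values are given side by side only.

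**Figure D5:**
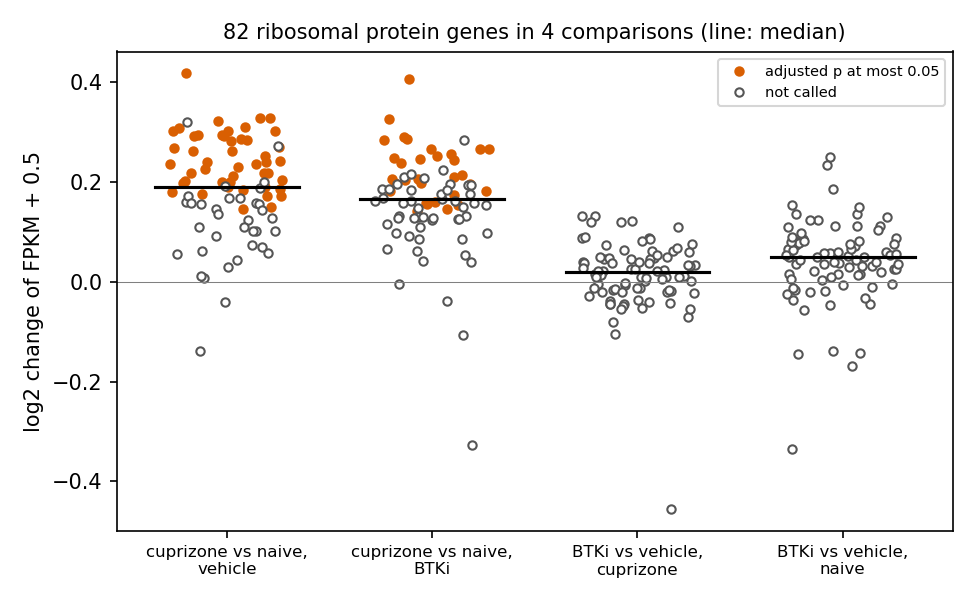
Log2 change of FPKM + 0.5 (vertical axis) of the 82 genes in 4 comparisons; each point is a gene, filled where the adjusted p is at most 0.05, and lines are medians. The medians are 0.19 and 0.17 for cuprizone against naive and 0.02 and 0.05 for BTKi against vehicle, and no point is filled in the latter 2.

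The level of these genes per unit length spanned a wide range. In naive vehicle the 76 cytoplasmic ribosomal proteins ran from 9.84 FPKM in Rpl12, 10.8 in Rpl27, 12.9 in Rps12 and 17.1 in Rpl5 to 419 in Rps15, 483 in Rpl41 and 581 in Rplp1. The length by which the deposited values were divided is not given. The length of all annotated exons of a gene was more than 2 times its main transcript in 42 of 72 genes, and level fell with that ratio across genes (Spearman's rho = -0.312, a description). By that ratio, 27 of the 42 rose (median 0.19) and 17 of the other 30 (median 0.20).

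Ribosomal protein genes have many near-identical pseudogenes, so how shared fragments were counted bears on each value. A median of 51.4% of the 50-base windows of the main transcript was also found in other annotated transcripts. The share was 98.6% in Rps27, and 39 of 76 genes were over 50%. Between change and share Spearman's rho was 0.009 over 76 genes, a description, and of 4 genes with at most 10% shared 2 rose (median 0.18) against 44 of the other 72 (median 0.20). Of 285 annotated ribosomal protein pseudogenes 19 passed the filter, 4 rose in cuprizone vehicle and 0 fell (median 0.24). Over all genes tested 10.2% were called as higher and 4.82% as lower. The summed level of the 285 pseudogenes was 485 to 609 FPKM in naive vehicle and 619.6 to 847 in cuprizone vehicle. Fragments of a gene and of its copies cannot be told apart where the sequence is the same.

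Other protein-coding genes were counted in cuprizone vehicle against naive vehicle by the length of all their annotated exons. Of 267 with at most 1000 exonic bases 11.2% rose (median 0.02), and of 43 of them with at least 50 FPKM 9.30% rose (median 0.02). From 1000 to 1500 bases 10.5% of 553 rose, and 14.8% of 81 with at least 50 FPKM. From 1500 to 2500 bases the shares were 11.0% of 1625 and 11.2% of 187. From 2500 to 4000 bases they were 11.7% of 2986 and 11.6% of 303, and above 4000 bases 9.93% of 7484 and 8.18% of 636.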

How the data were processed

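The authors deposited 1 table of FPKM (fragments scaled by gene length and depth) for 54446 Ensembl genes in 24 libraries, made with the RNeasy Micro and TruSeq stranded mRNA kits per the labels' protocols. The aligner, counter, build and gene lengths were not given in the sources used here. Of the IDs, 53229 matched GENCODE M21 (GRCm38) with version. Genes with a mean of at least 0.5 FPKM (15216) entered limma 3.58.1 (R 4.3.3) as log2(FPKM + 0.5), with eBayes trend, all 4 groups in 1 model without covariates, Benjamini-Hochberg adjustment over all genes and a threshold of 0.05. Fold and percent changes are on that scale, which understates low genes. Values are mean ± SD in FPKM, and SE is on the log2 scale. The steps were tested on simulated data. Python 3.11.15, pandas 2.3.3 and matplotlib 3.10.9 were used. Of values of low genes, 89.6% to 91.2% lay within 0.1 of a whole multiple of 1 fragment (20% by chance), from which depth was read. In the 68 pairs of libraries within a group, the SD of the log2 difference over genes tested ran from 0.208 to 0.335. No limit was set for calling a pair the same library.

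The genes and lists were chosen with earlier results of these data known. Genes named were the 8 largest rises and falls called per comparison (the 3 smallest p where fewer than 3 were called), paralogs with parents, the P stalk, Rpl5, Rpl11, those with other names, the highest and lowest levels and up to 4 called genes of each other list. Other names (Rps4x, Rpl12, Rpl27, Rpl28, Rps3, Rps12, Rps15, Rps21, Rpl41) were added after their values were seen, and a few genes the rule names are not reported here. Alternatives changed the pseudocount, filter, scaling, library weights, replicate block and each library in turn. Alternatives leaving out 3 libraries low in choroid plexus genes, or the microglia-highest library of each cuprizone group, were added after seeing the data.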

Additional observations from a re-analysis of the deposited data

Results flagged for a closer look

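In 9 of 148 sets of libraries tested the highest library lay far from the others of its group, where chance gives about 7.4. Cuprizone BTKi 8 was the library in 7 of them. Its share of FPKM in ribosomal protein genes was 3.71%, against 3.10% to 3.38% in the other 7 cuprizone BTKi libraries. It had 238 FPKM of Rpl11 (others 184 to 209.6), 419 of Rpl13a (312 to 344), 109 of Rpl27a (86.8 to 96.1), 249 of Rpl8 (213 to 228), 137 of Rps19 (98.1 to 116) and 0.179 of Rpl39l (0 to 0.0816). Cuprizone vehicle 8 had 83.8 FPKM of Rpl39, against 59.0 to 70.3 in the others of its group. Naive BTKi 1 had 18.3 FPKM of the retrogene Rps27rt, against 2.28 to 3.37 in the other 3. The cause of these values was not tested.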

How the results depend on the processing

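In cuprizone vehicle against naive vehicle the count of genes called stayed at 32 to 52 in 36 alternatives, with 0 lower in each, and 29 genes were called in every one. It was 32 without naive vehicle 4 and 36 without naive vehicle 2. In cuprizone BTKi against naive BTKi the count of 31 moved to 17 with no filter on low values and to 14 under median ratio scaling. Leaving out each library in turn gave 13 to 36 there, and 8 genes were called in every alternative. No gene was called in the comparisons of BTKi with vehicle, or in their difference, under any alternative. Of the named calls, 12 of 15 in the vehicle comparison and 6 of 8 in the BTKi comparison were kept in every alternative.

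Estimates near 0 changed sign. In cuprizone vehicle against naive vehicle Rpl10 was -1.94e-05 under median ratio scaling and -0.0427 without the 3 libraries low in choroid plexus genes, and leaving out 1 library gave -0.0356 to 0.0907. Rpl22l1 was -0.0210 under median ratio scaling, -0.0147 under quantile normalization, -0.0180 with scaling without the top genes and -0.0330 with the replicate block, and -0.0362 to 0.0619 with 1 library left out. Rps27rt was 0.59 without the 3 libraries low in choroid plexus genes, and -0.188 to 0.219 with 1 library left out. The cause was not tested.

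Replicate numbers are shared between groups, and of 28 same-number pairs 8 had a correlation of deviations over 0.1 (range -0.27 to 0.32). Pairs of unlike number were not measured, so these values cannot tell whether the numbers pair libraries. With the replicate block 45 genes were called in the vehicle comparison, 32 in the BTKi comparison and 0 in the others. Depth was at least 2.65e+07 fragments, and Rpl39l, Rpl10l and Rpl3l fell below the filter.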
